A study of Mus musculus with 6 samples.

Results

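The 37 genes described here encode the machinery that brings nuclear-encoded proteins into mitochondria, folds them there, degrades the damaged ones and assists mitochondrial protein synthesis. They were chosen by symbol, with earlier results of these data known. Each matched 1 of the 53733 named rows of the count table, and all 37 were among the 13652 rows tested. RNA came from a mouse acute myeloid leukaemia line made from foetal liver cells with 2 retroviral vectors. One expressed MLL-AF9 constantly together with the luciferase Luc2, and the other expressed FLT3-ITD with DsRED from a doxycycline-responsive TRE-tight promoter. Both groups were NSG mice given these cells by intravenous injection and kept on doxycycline for 96 h. In the ON group (3 mice) doxycycline feeding then went on for a further 48 h, so FLT3-ITD stayed induced, and in the OFF group (3 mice) it was withdrawn for those 48 h. All cells therefore carried MLL-AF9, and the groups differed in doxycycline as well as in FLT3-ITD, whose effects cannot be told apart here. Doxycycline is an antibiotic that can act on mitochondrial ribosomes. Bone marrow was the source of the sorted viable leukaemic cells, and 1 library per mouse read the 3' ends of mRNAs. The sources used here do not give the age and sex of the mice, or whether the line is a single clone. NSG mice lack lymphocytes but keep their own myeloid and red blood cells.

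Most mitochondrial proteins are made in the cytosol. They enter through the translocase of the outer membrane, called TOM, and pass to the TIM23 complex, which threads proteins with a presequence into the matrix, or are escorted by small TIM chaperones to the TIM22 complex, which inserts carriers into the inner membrane. An ATP-driven motor built around the chaperone Hspa9 pulls proteins into the matrix, where Hspd1 and Hspe1 form a folding chamber and the proteases Lonp1 and Clpp remove damaged proteins. Rapidly growing leukaemic cells depend on this supply of proteins for respiration and for mitochondrial amino acid and folate metabolism.

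Libraries held 8347588 to 9329917 counts, and 1 count was worth at most 0.124 CPM (counts per 1000000 counts of the library after TMM scaling, the unit of every level below). The lowest count of any member in any library was 27. Myeloid identity markers were present in every library: Ptprc, the pan-leukocyte antigen CD45, stood at 111 to 126 CPM in ON and 178 to 198 CPM in OFF, and Hoxa9 at 324 to 335 and 333 to 361 CPM. Of 10 such myeloid markers 7 were higher in OFF and 1 lower (70% and 10%, against 17.3% and 17.5% of all tested rows). Mpo stood at 290 to 320 CPM in ON and 659 to 933 CPM in OFF, and Elane at 742 to 959 and 1598 to 1665 CPM. Ctsg was the lower one, at 190 to 201 CPM in ON and 127 to 168 CPM in OFF. The 10 markers had a summed level of 2733 to 3118 CPM in ON and 4517 to 4717 CPM in OFF. The 5 erythroid markers that passed the filter on low counts, 4 globin genes and Alas2, were all higher in OFF. Their summed level was 149.7 to 211 CPM in ON and 577 to 931 CPM in OFF, at most 0.0931% of the scaled library. Klf1 and Epor were below that filter, and Epor was at 0 in all ON libraries. Summed levels stayed at or below 3.19 CPM in every library for 6 lymphoid, 5 megakaryocyte and 7 stromal or endothelial markers. Of 7 resident macrophage markers, C1qa, C1qb, C1qc, Siglec1 and Cd5l were at or near 0, Vcam1 was lower in OFF and Mrc1 was higher. The part of these marker differences in the results was not tested. The bulk libraries cannot tell fewer cells with a transcript from less of it in each cell.

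Of the 37 genes, 25 were lower in OFF and none was higher at an adjusted p under 0.05 (edgeR's quasi-likelihood test, Benjamini-Hochberg over all tested rows). Over all tested rows 34.8% were called in either direction, 17.5% lower and 17.3% higher. The median log2 fold change of the 37 genes, OFF minus ON, was -0.61, against 0.004 over all tested rows. At least 2-fold lower were 10 of the 37, against 5.51% of all tested rows. The OFF values lay wholly below the ON values for 26 genes and wholly above for 1, where 24.5% and 23.8% of all rows did so. Because the 37 genes were chosen with earlier results of these data known, these comparisons with all rows are a description. Summed over the 37 genes, the level was 2742, 2742 and 2733 CPM in the ON libraries and 1736, 1496 and 1640 CPM in the OFF libraries. The ON mice were nearly identical in this sum and all OFF mice lay well below them.

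**Figure D1:**
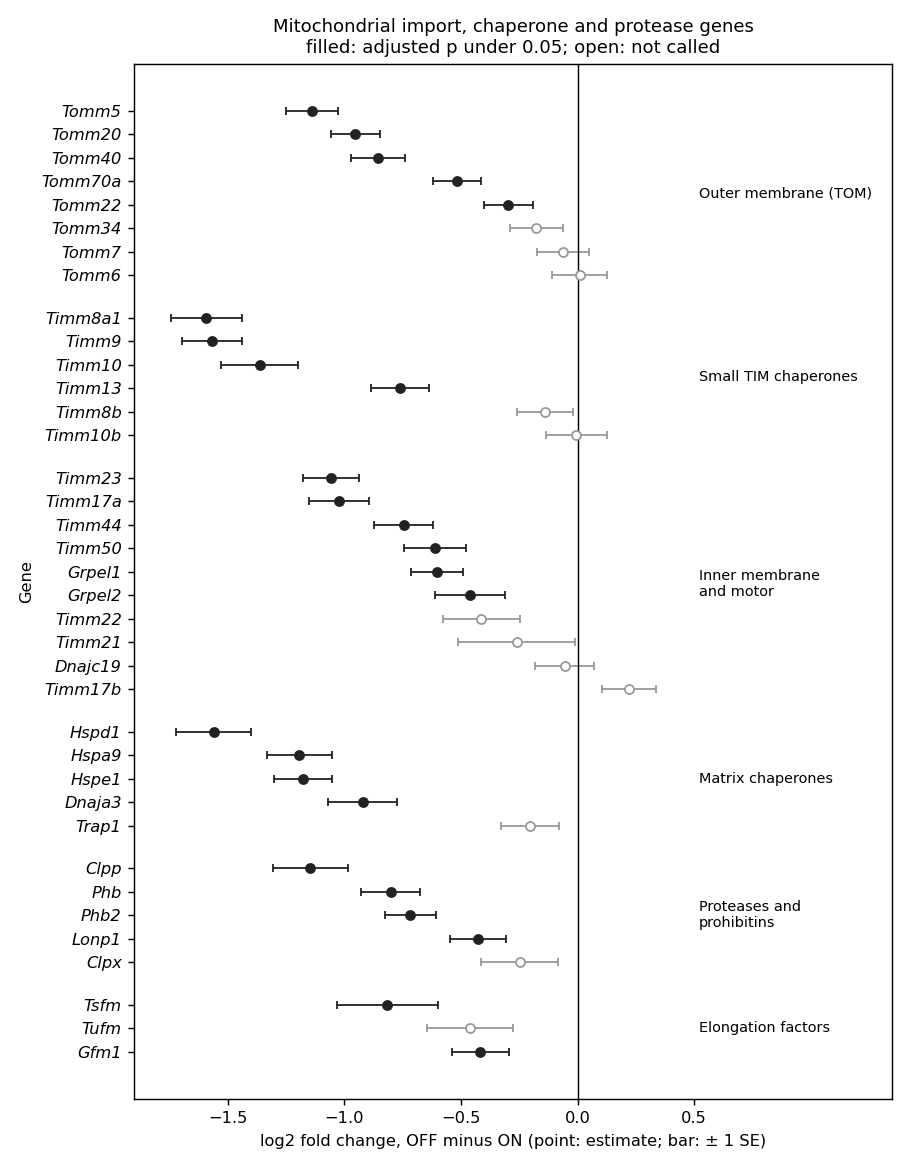
Log2 fold change (OFF minus ON, horizontal axis) of each of the 37 genes by role, with the point as the estimate and the bar as 1 SE from 3 mice per group. Filled points are the 25 genes called lower and open points the 12 not called. Timm8a1, Timm9 and Hspd1 lie furthest to the left. Timm17b alone lies to the right of 0 by more than 1 SE, and it was not called.

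Promoter sequences are shown first because several of the genes that fell furthest share a short run of letters there. RefSeq promoter windows on GRCm38.p6, 250 bases before to 50 bases after a gene's start, were at hand for 33 of the 37 genes. Timm21, Tomm7, Grpel2 and Hspa9 had no window and were not searched for any motif. The E-box CACGTG, the letters to which MYC with MAX binds best, was found on either strand in windows of 7 of these 33: Timm8a1, Timm9, Timm10, Hspd1, Tomm20, Phb and Lonp1. Of all 27025 genes with a window, 8.09% held it. Their 9 sites are printed below, 5' to 3' on the strand of the gene, with the motif in capitals and 12 bases on each side. Distances are from the RefSeq start on which each window is set, which can differ from the end of the GENCODE gene span given with the levels, as it does for Timm8a1.
Timm8a1, 236 bases upstream of its start (chrX:134541889-134541918, minus strand): ccttcagtggacCACGTGggatgaagcaac
Timm8a1, 24 bases past its start (chrX:134541629-134541658, minus strand): ccgtcacccagaCACGTGaaggtcggcaag
Timm9, 58 bases upstream (chr12:71136716-71136745, minus strand): cctacattttccCACGTGgtaacgaatctg
Timm9, 1 base upstream (chr12:71136659-71136688, minus strand): catcactgccccCACGTGttctcagctttc
Hspd1, 80 bases upstream (chr1:55088306-55088335, minus strand): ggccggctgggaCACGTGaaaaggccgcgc
Timm10, 28 bases past its start (chr2:84827037-84827066, plus strand): ccggaagtgaccCACGTGcttcttatttcg
Tomm20, 126 bases upstream (chr8:126946030-126946059, minus strand): gcacgccacaaaCACGTGctgcccctgacc
Phb, 232 bases upstream (chr11:95666713-95666742, plus strand): ttgaggaataggCACGTGcatatattacca
Lonp1, 36 bases upstream (chr17:56626922-56626951, minus strand): cgcgagcgtcatCACGTGcgcaaacggggg

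All 7 genes with the E-box letters were called lower, with a median log2 fold change of -1.36, and they include the 4 genes with the largest falls, Timm8a1, Timm9, Hspd1 and Timm10. Of the 26 genes with a window but without these letters, 16 were called lower, with a median of -0.56. Over all tested rows 17.5% were called lower, and that share among tested rows with these letters was not counted. These counts are a description, since the motif was looked for with the fold changes known. The windows of these 33 genes were also richer in G and C than others (median 59.8%, against 52.7% over all windows). A match says only that the letters are there.

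Another motif has a site where Hspd1 and Hspe1, which stand head to head, begin. The letters GAANNTTC are a pair of the inverted units that the heat shock factor recognises. They occurred in windows of 3 of the 33 genes, a share close to the 9.04% of all genes. In Hspd1 and Hspe1 this is 1 and the same site, found in a window of each gene, and Timm9 holds another. Hspd1 has more than 1 RefSeq start, and its window with this site is not the window with the E-box. The site lies inside the GENCODE span of Hspd1. The shared site is shown on the strand of Hspe1, with the motif in capitals.
Hspe1 and Hspd1 (chr1:55088053-55088082, plus strand): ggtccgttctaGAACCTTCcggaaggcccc
Timm9, 197 bases upstream (chr12:71136854-71136883, minus strand): taggctttctaGAAATTTCgacagattccg

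Of 4 further motifs searched on both strands, the ETS letters CCGGAAGT, which overlap no E-box but stand beside the one in Timm10, were found in 7 of 33 genes (4.31% of all genes). Of those 7, 5 were called lower, against 17.5% of all tested rows: Timm10, Timm23, Tomm70a, Phb2 and Gfm1, but not Tufm and Timm10b. The 7 had a median log2 fold change of -0.52. Of the 26 genes with a window but without the ETS letters, 18 were called lower, with a median of -0.75. The cyclic AMP element TGACGTCA occurred in Trap1 alone (2.03% of all genes). TGATGNAA, the composite element to which ATF4 binds, was not found in any of the 33 windows (4.51% of all genes), nor was the palindromic motif of the respiratory factor NRF1 (1.07% of all genes).

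Of 8 outer membrane genes, 5 were called lower (62.5%, against 17.5% of all tested rows) and none higher. Their median log2 fold change was -0.41. Tomm20 (chromosome 8, 126930667 to 126945844, minus strand, GRCm38), the receptor for presequences, had a level of 172, 185 and 174 CPM in ON and 96.8, 84.2 and 93.3 CPM in OFF. It fell 1.94-fold (log2 fold change -0.95 with an SE of 0.11, adjusted p = 1.23e-05 by edgeR), and the groups did not overlap. Tomm40, the channel itself, stood at 68.6, 71.1 and 80.3 CPM in ON and 37.3, 39.0 and 45.2 CPM in OFF, a 1.81-fold fall (adjusted p = 7.07e-05 by edgeR). Tomm70a, the receptor for carrier precursors, fell 1.43-fold, from 117, 106 and 110 CPM to 77.4, 74.8 and 80.7 CPM. Each of these 3 genes was lower in every OFF mouse than in any ON mouse.

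The 3 small subunits that stabilise the TOM channel gave different calls. Tomm5 (chromosome 4, 45105208 to 45108114, minus strand) fell 2.20-fold, from 71.1, 70.0 and 71.1 CPM in ON to 34.4, 29.1 and 32.9 CPM in OFF (log2 fold change -1.14 with an SE of 0.11, adjusted p = 4.32e-06 by edgeR). Tomm6 stood at 109, 111 and 113 CPM in ON and 116, 93.0 and 127 CPM in OFF (a log2 fold change of 0.01, 95% interval -0.25 to 0.26). The OFF values of Tomm6 spread around those of ON. Tomm6 shares 859 exonic bases with Gm21981 on the same strand, whose row holds 98.7% as many counts, so the same reads may stand in both. Tomm7 stood at 186, 153 and 161 CPM in ON and 156, 150 and 172 CPM in OFF (a log2 fold change of -0.06, 95% interval -0.30 to 0.17). Its groups also overlapped, and the differences between Tomm5 and the other two were not tested.

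Tomm22, the central receptor that links the channels, was called lower by a narrow margin, from 73.0, 78.2 and 73.6 CPM to 61.0, 57.7 and 64.4 CPM (log2 fold change -0.30 with an SE of 0.10, adjusted p = 0.0391 by edgeR). Leaving out 1 ON library, whichever it was, or OFF replicate 2 ended this call (adjusted p = 0.0923, 0.159, 0.102 and 0.127 by edgeR), as did 5 other settings. Tomm34, a cytosolic co-chaperone of import, gave a log2 fold change of -0.18 without passing (adjusted p = 0.25), although its OFF values, 30.5 to 34.3 CPM, lay just below its ON values, 34.7 to 39.2 CPM.

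Small TIM chaperones carry hydrophobic precursors across the space between the membranes, in hexamers of Timm9 with Timm10 and of Timm8a1 with Timm13. All 4 of these subunits fell, and the other 2 small TIM genes were not called (66.7% lower, against 17.5% of all tested rows). Timm9 (chromosome 12, 71123173 to 71136684, minus strand) was at 38.0, 34.9 and 36.2 CPM in ON and 13.2, 11.4 and 12.2 CPM in OFF. It fell 2.96-fold (log2 fold change -1.57 with an SE of 0.13, adjusted p = 1.03e-06 by edgeR), the smallest p of the 37 genes. Its partner Timm10 (chromosome 2, 84826997 to 84830213, plus strand) stood at 15.5, 14.8 and 17.4 CPM in ON and 6.77, 5.46 and 6.27 CPM in OFF, a 2.57-fold fall (log2 fold change -1.36, SE 0.16). Both subunits of this hexamer were lower in all 3 OFF mice by a wide margin.

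Timm8a1 (chromosome X, 134537256 to 134541865, minus strand) corresponds to the human deafness-dystonia gene and showed the largest fall of the 37. It stood at 61.3, 60.3 and 54.2 CPM in ON and 24.8, 15.5 and 18.0 CPM in OFF (log2 fold change -1.59 with an SE of 0.15, adjusted p = 3.77e-06 by edgeR). Timm13 fell 1.70-fold, from 51.7, 47.3 and 53.1 CPM to 34.5, 27.0 and 28.2 CPM. Timm8b, the close relative of Timm8a1, stood at 65.4, 56.0 and 53.2 CPM in ON and 49.1, 50.1 and 59.4 CPM in OFF, with overlapping groups (log2 fold change -0.14, 95% interval -0.40 to 0.12). Timm10b, which docks the small TIM proteins onto TIM22, stood at 64.6, 65.1 and 62.6 CPM in ON and 52.8, 61.3 and 77.8 CPM in OFF. The fitted change of Timm10b was near 0 (95% interval -0.29 to 0.28), with OFF mice on either side of the ON mice, and part of its row may be shared with Gm45799, which holds 17.4% as many counts.

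**Figure D2:**
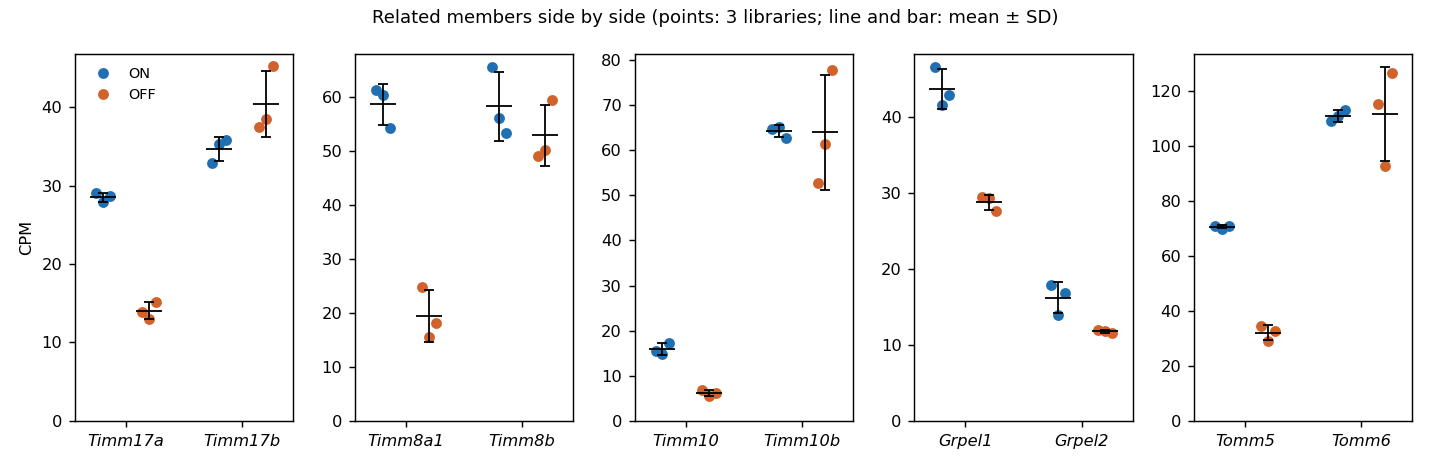
Level in CPM (vertical axis, from 0) of 5 pairs of related genes in the 3 ON and 3 OFF libraries, with points for libraries and the line and bar for the mean and SD. Timm17a, Timm8a1, Timm10 and Tomm5 fell while Timm17b, Timm8b, Timm10b and Tomm6 were not called, and Grpel1 and Grpel2 both fell.

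At the inner membrane, 6 of 10 genes of the TIM23 and TIM22 complexes and the import motor were called lower and none higher (median -0.53). That is 60% lower, against 17.5% of all tested rows. Timm23 (chromosome 14, 32180162 to 32201898, minus strand), the pore through which presequence proteins pass, stood at 133, 148 and 131 CPM in ON and 71.7, 55.6 and 70.3 CPM in OFF. It fell 2.08-fold (log2 fold change -1.06 with an SE of 0.12, adjusted p = 1.57e-05 by edgeR). Its last 300 bases are identical to those of Gm10273, whose row holds 98.3% as many counts and changed by -1.06, so the reads of both cannot be told apart. Timm50, the receptor of the complex, fell 1.53-fold, from 34.1, 34.4 and 29.3 CPM to 23.4, 18.3 and 22.3 CPM. Timm44, which tethers the motor to the pore, fell 1.68-fold, from 80.6, 76.5 and 77.8 CPM to 54.1, 47.6 and 38.5 CPM.

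Timm17a and Timm17b are alternative subunits of the TIM23 pore, and only the former was called lower. Timm17a (chromosome 1, 135295213 to 135313778, minus strand) was at 29.0, 27.9 and 28.7 CPM in ON and 13.9, 13.0 and 15.2 CPM in OFF (log2 fold change -1.02 with an SE of 0.13, adjusted p = 3.12e-05 by edgeR). Timm17b (chromosome X, 7899357 to 7908351, plus strand) stood at 32.9, 35.3 and 35.8 CPM in ON and 37.4, 38.5 and 45.2 CPM in OFF. It was the only one of the 37 genes whose OFF values all lay above its ON values, without passing the test (log2 fold change 0.22 with an SE of 0.12, adjusted p = 0.164 by edgeR). The log2 ratio of Timm17a to Timm17b was -0.18, -0.33 and -0.32 in ON and -1.40, -1.53 and -1.54 in OFF, a difference of -1.21 that is many times the SD within either group (0.086 and 0.080).

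Related pairs were compared by this ratio in 3 cases. For Timm8a1 to Timm8b it went from -0.09, 0.10 and 0.03 in ON to -0.97, -1.66 and -1.69 in OFF, a difference of -1.46. For Grpel1 to Grpel2 it went from 1.354, 1.55 and 1.32 to 1.26, 1.28 and 1.22, a difference of -0.15. The OFF ratios lay below the ON ratios in all 3 pairs, so each gave an exact two-sided permutation p of 0.1 (0.1 after adjustment over the 3 pairs). This is the smallest p that 3 against 3 mice can give, and so none of the differences can pass 0.05.

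Grpel1 and Grpel2 are alternative nucleotide exchange factors of the motor chaperone. Grpel1 fell 1.52-fold, from 46.6, 41.6 and 42.9 CPM to 29.4, 29.3 and 27.6 CPM (adjusted p = 8.00e-04 by edgeR). Its exons share 411 bases at the 3' end with Tada2b on the opposite strand, which changed from a mean of 15.8 to 11.2 CPM. Grpel2 fell 1.38-fold, from 17.9, 13.9 and 16.9 CPM to 11.99, 11.8 and 11.6 CPM (adjusted p = 0.0254 by edgeR). Omitting ON replicate 1, ON replicate 3 or OFF replicate 2 ended the call of Grpel2 (adjusted p of 0.125, 0.0911 and 0.069 by edgeR), as did DESeq2 (0.0846).

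The other 3 genes of this group were not called. Timm22, the pore for carriers, stood at 17.6, 14.2 and 16.6 CPM in ON and 14.4, 12.03 and 9.90 CPM in OFF (a log2 fold change of -0.41, adjusted p = 0.0639), and was called lower without OFF replicate 1 (adjusted p = 0.012 by edgeR). Timm21, which couples TIM23 to TOM, had few counts, at 4.09 to 5.69 CPM in ON and 3.01 to 4.66 CPM in OFF (95% interval of the log2 fold change -0.80 to 0.27). Dnajc19, a motor subunit also tied to inner membrane structure, stood at 25.5 to 30.2 CPM in ON and 25.1 to 29.5 CPM in OFF (95% interval -0.32 to 0.21). A copy of Dnajc19, Dnajc19-ps, holds 40.8% as many counts.

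Matrix chaperones showed the deepest fall of the 6 groups in summed level, from 878, 912 and 901 CPM in ON to 446, 327 and 311 CPM in OFF. Of 5 genes, 4 were called lower (80%, against 17.5% of all tested rows) and none higher, with a median log2 fold change of -1.18. Hspd1 (chromosome 1, 55077835 to 55088243, minus strand), the chaperonin HSP60, stood at 487, 481 and 488 CPM in ON, with almost no spread, and at 216, 152 and 126 CPM in OFF. It fell 2.95-fold (log2 fold change -1.56 with an SE of 0.16, adjusted p = 1.93e-05 by edgeR). Hspd1-ps3, a copy of its 3' end, holds 31.5% as many counts and changed by -1.59. Hspe1 (chromosome 1, 55088132 to 55091307, plus strand), the lid of the same chamber, fell 2.26-fold, from 193, 205 and 183 CPM to 99.1, 71.6 and 85.8 CPM.

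Hspa9 (chromosome 18, 34937414 to 34954357, minus strand), the motor chaperone mortalin, fell 2.29-fold, from 154, 171 and 177 CPM to 91.6, 66.5 and 61.5 CPM (log2 fold change -1.19 with an SE of 0.14, adjusted p = 2.04e-05 by edgeR). Its DnaJ partner Dnaja3 fell 1.89-fold, from 15.6, 18.3 and 19.0 CPM to 8.88, 9.13 and 9.90 CPM. All OFF mice were below all ON mice for these 4 genes. Trap1, the mitochondrial HSP90, was not called, with 28.6, 36.1 and 34.2 CPM in ON and 30.2, 27.6 and 28.1 CPM in OFF (a log2 fold change of -0.20, 95% interval -0.47 to 0.06).

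**Figure D3:**
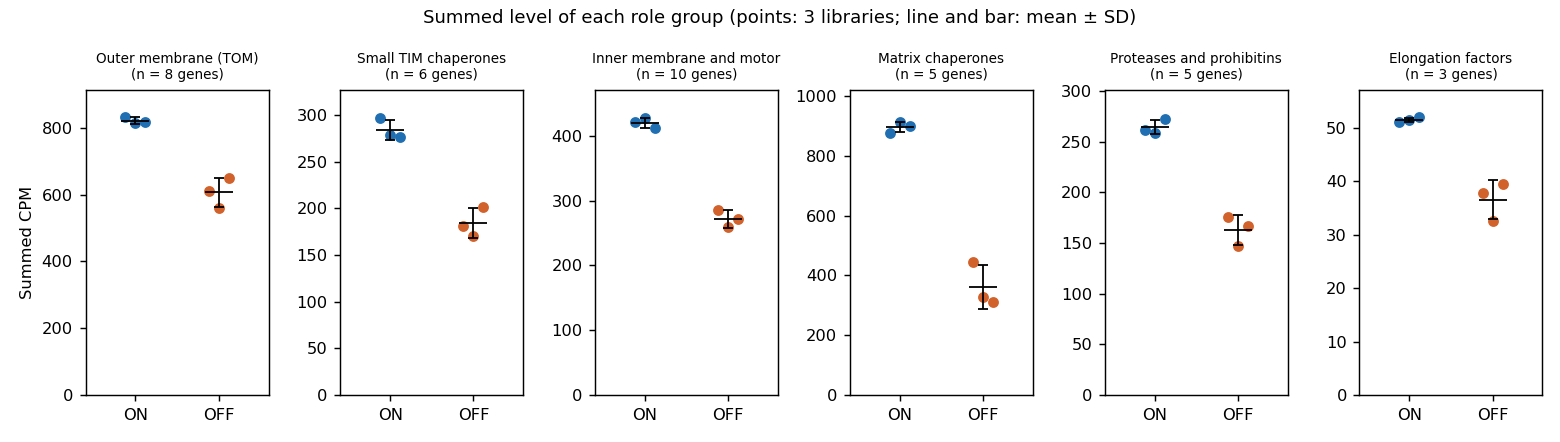
Summed CPM (vertical axis, from 0) of the genes of each role in the 3 ON and 3 OFF libraries, with points for libraries and the line and bar for the mean and SD. Every OFF library lies below every ON library in all 6 groups, and the matrix chaperones drop furthest, from about 897 to 361 CPM on average.

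Among the proteases and the prohibitins, 4 of 5 genes were called lower (80%, against 17.5% of all tested rows) and none higher (median -0.72). Clpp (chromosome 17, 56990305 to 56996188, plus strand), the peptidase of the ClpXP complex, stood at 23.6, 20.2 and 22.5 CPM in ON and 12.2, 8.24 and 9.46 CPM in OFF, a 2.21-fold fall (log2 fold change -1.15 with an SE of 0.16, adjusted p = 8.75e-05 by edgeR). Its unfoldase Clpx stood at 9.59, 12.5 and 12.3 CPM in ON and 10.1, 9.13 and 9.68 CPM in OFF and was not called (log2 fold change -0.25, 95% interval -0.60 to 0.10). The peptidase and the unfoldase of this complex thus gave different calls, and the difference between them was not tested. Lonp1, the other soluble matrix protease, fell 1.34-fold, from 33.3, 35.6 and 38.9 CPM to 27.9, 28.4 and 24.0 CPM (adjusted p = 0.0136 by edgeR), a call lost without ON replicate 2 or 3 (0.0531 and 0.0814).

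The prohibitins Phb and Phb2 assemble into rings in the inner membrane. Phb fell 1.74-fold, from 58.5, 57.4 and 62.4 CPM to 39.5, 28.7 and 34.0 CPM, and Gm7666, a copy of its 3' end, holds 31.4% as many counts and changed by -0.89. Phb2 fell 1.64-fold, from 137, 133 and 137 CPM to 85.7, 72.4 and 89.3 CPM (adjusted p = 1.86e-04 by edgeR). Both partners of the ring were lower in all 3 OFF mice than in any ON mouse.

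Elongation factors of mitochondrial translation act on the organelle's own ribosomes. Of 3 such genes, 2 were called lower (66.7%, against 17.5% of all tested rows), with a median of -0.46. Gfm1, the translocase EF-G1, fell 1.33-fold, from 27.9, 27.0 and 29.8 CPM to 19.5, 20.9 and 22.9 CPM (adjusted p = 0.0165 by edgeR). Omitting ON replicate 1 (0.0547), ON replicate 3 (0.0799) or OFF replicate 2 (0.0532) ended this call of Gfm1. Tsfm, which recharges the elongation factor Tufm, fell 1.76-fold, from 9.14, 9.45 and 9.30 CPM to 4.998, 3.79 and 7.04 CPM, a call lost without OFF replicate 2 (adjusted p = 0.0541 by edgeR). Tufm stood at 14.2, 15.03 and 12.9 CPM in ON and 13.2, 7.80 and 9.57 CPM in OFF and was not called (log2 fold change -0.46, adjusted p = 0.0659). Tufm was called lower without OFF replicate 1 (0.00374) and with no filter on low counts (0.0363). Gm9755, a copy of the 3' end of Tufm, holds 17.9% as many counts.

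Within the OFF group the mice were not alike. OFF replicate 2 was the lowest of the 3 for 22 of the 37 genes, and OFF replicate 1 was the highest for 21. The order differed between genes: Hspd1, Hspa9 and Timm44 were lowest in OFF replicate 3, whereas Timm10b, Tomm6 and Timm17b were highest there. Ribosomal RNA locus rows took 18.0%, 17.2% and 10.1% of counts in OFF replicates 1 to 3 and 11.3% to 16.2% in ON, and their part in these orders was not tested. Without OFF replicate 3 the count of genes called lower was 25 again, and over all 14 alternatives it ranged from 21 to 27.

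**Figure D4:**
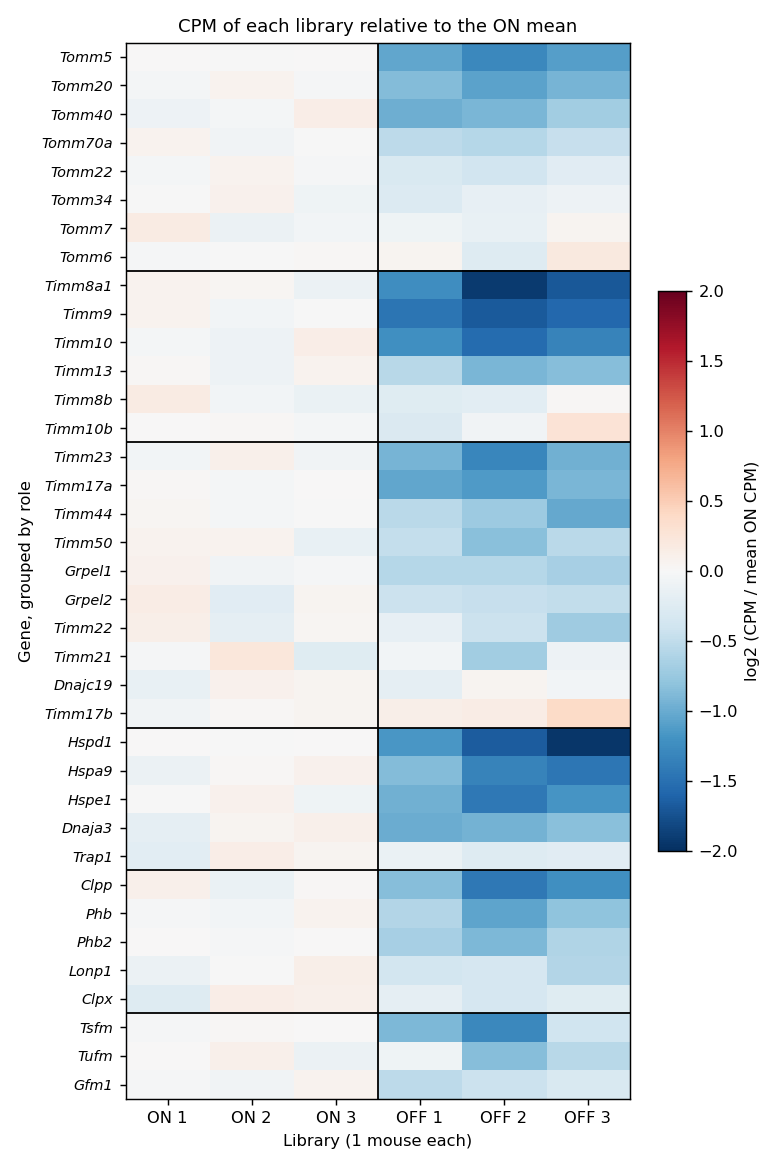
Log2 of the CPM in each library over the mean of the 3 ON libraries (colour), for the 37 genes in rows grouped by role and the 6 libraries in columns. Blue fills the OFF columns for most rows, is deepest for Timm8a1, Timm9 and Hspd1, and is absent or pale for others such as Tomm6, Tomm7, Timm8b, Timm10b, Dnajc19 and Timm17b.

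Among other genes of mitochondrial import, 7 of 25 tested were lower and 1 was higher, with a median of -0.35. These are 28% and 4%, against 17.5% and 17.3% of all tested rows. How this list differs from the 37 genes was not tested. Without ON replicate 3 it was 4 lower, and without OFF replicate 3 it was 12. Chchd4, the oxidoreductase that folds small TIM proteins after import, fell from 39.7, 34.2 and 34.9 CPM to 16.2, 14.8 and 13.5 CPM (log2 fold change -1.29, adjusted p = 5.90e-06 by edgeR). Its partner oxidase Gfer was also lower (-0.60). Tomm20l fell by 2.03 on the log2 scale at 5.24 to 6.08 CPM in ON, and shares 49 bases at its 3' end with Timm9 on the opposite strand. Pitrm1, which digests cleaved presequences, fell (-0.71), while the outer membrane protein Mtch1 was higher (0.34, adjusted p = 0.0426 by edgeR), a call lost in 7 of 14 alternatives, including without ON replicate 2 (0.197), ON replicate 3 (0.157), OFF replicate 2 (0.0537) or OFF replicate 3 (0.0626).

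Other mitochondrial chaperones and proteases gave 6 lower and 2 higher of 16 tested (median -0.18). These are 37.5% and 12.5%, against 17.5% and 17.3% of all tested rows. The list also holds Nlrx1, Hsdl1 and Lactb2, which are neither chaperones nor proteases and were not called. Atad3a, an inner membrane ATPase, fell from 37.8, 35.1 and 33.7 CPM to 17.5, 12.4 and 9.35 CPM (log2 fold change -1.44, adjusted p = 4.43e-05 by edgeR), and Afg3l2, a subunit of the m-AAA protease, fell (-0.76). Oma1, the stress-activated inner membrane protease, rose from 18.4, 15.6 and 16.2 CPM to 26.2, 26.6 and 26.7 CPM (log2 fold change 0.66, adjusted p = 9.69e-04 by edgeR) and was called in all 14 alternatives. Hscb, a co-chaperone of iron-sulphur cluster assembly, was higher (0.69), a call lost in 8 of the 13 alternatives that tested it, among them the omission of any 1 library except OFF replicate 1 (adjusted p from 0.0711 to 0.15).

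Mitochondrial ribosomal protein genes, which need import to reach the organelle, gave 41 lower and 2 higher of 78 (median -0.36). These are 52.6% and 2.56%, against 17.5% and 17.3% of all tested rows. Of the large subunit 27 of 49 were lower, or 15 without ON replicate 1 or OFF replicate 2, led by Mrpl12 (-1.04), Mrpl50 (-1.06) and Mrpl38 (-0.95). Of the small subunit 14 of 29 were lower, or 8 when ON replicate 1 or 2 or OFF replicate 2 was omitted and 9 without ON replicate 3, led by Mrps18b (-1.19), Mrps10 (-0.85) and Mrps5 (-0.98). The 2 higher genes were Mrpl14 (0.42) and Mrpl33 (0.33), calls that ended when 1 ON library, whichever it was, or OFF replicate 3 was omitted (adjusted p from 0.0553 to 0.179 by edgeR), and for Mrpl33 also OFF replicate 2 (0.0582). Other mitochondrial translation factors gave 4 lower and none higher of 17 (23.5% lower, against 17.5% of all tested rows), or 2 lower without ON replicate 1 or 2. Ptcd3 (-0.73), Lrpprc (-0.66) and Gtpbp3 (-0.56) were at the front. The call of Gtpbp3 was lost without any 1 ON library (adjusted p from 0.0581 to 0.0627 by edgeR). The 8 genes of the cytosolic chaperonin CCT, a counterpart of Hspd1 outside mitochondria, were all lower (median -0.67), against 17.5% of all tested rows. Cct6a (-1.03), Cct3 (-1.07) and Cct8 (-0.83) had the smallest p.

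**Figure D5:**
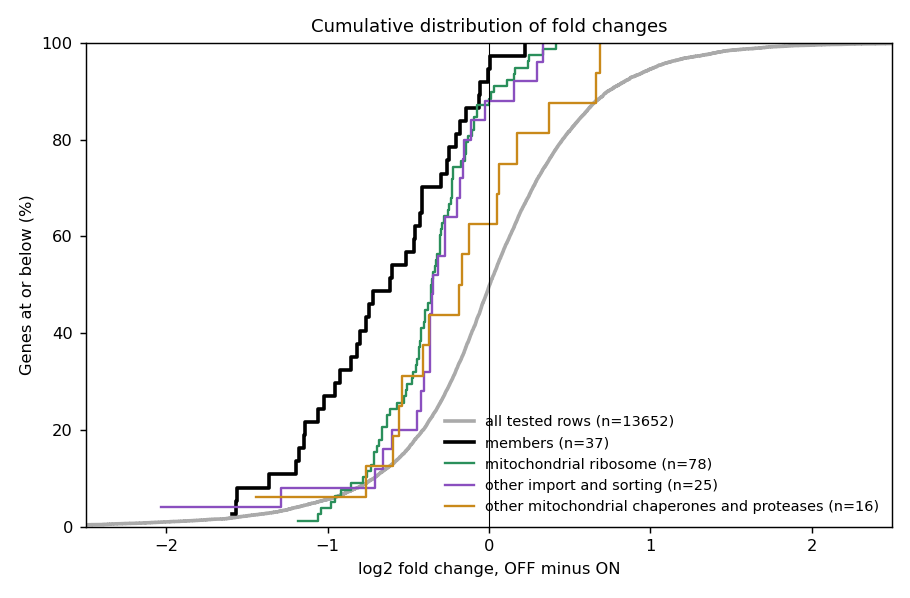
Share of genes at or below each log2 fold change (OFF minus ON, horizontal axis) for the 37 genes, 3 groups of related mitochondrial genes and all 13652 tested rows. The curve of the 37 genes lies to the left of the others over most of its range, with a median of -0.61 against -0.36 for mitochondrial ribosomal genes and 0.004 for all rows.

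Of 7 tested transcriptional regulators linked to these genes, 5 were lower in OFF and none was higher (71.4% lower, against 17.5% of all tested rows). Pprc1, Hsf1 and Nrf1 were chosen after values were seen, so this share is only a description. Myc, which drives many mitochondrial biogenesis genes, fell from 20.7, 20.2 and 26.0 CPM to 7.11, 7.02 and 8.25 CPM (log2 fold change -1.58, adjusted p = 6.05e-06 by edgeR). Atf5, a regulator of the mitochondrial unfolded protein response, fell from 50.5, 64.8 and 60.3 CPM to 18.2, 15.04 and 11.3 CPM (-1.98), and Atf4 also fell (-1.43). Ddit3, another factor of stress responses, was not called, with 30.5 to 34.2 CPM in ON and 23.7 to 27.9 CPM in OFF (a log2 fold change of -0.28, adjusted p = 0.0898). Pprc1 (-1.37) and the heat shock factor Hsf1 (-0.57, adjusted p = 0.0114 by edgeR) were also lower. Nrf1 was not called (-0.09, adjusted p = 0.591 by edgeR). Whether these factors account for the changes in the 37 genes was not tested.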

How the data were processed

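The authors' deposited count table held whole-number raw counts for 54838 rows and 6 libraries from a Lexogen 3' mRNA kit (QuantSeq), per the labels' protocols. Per the submitters' processing notes the build was mm10, and the tools included HISAT2 2.0.4, featureCounts of Subread 1.6.3, cutadapt 1.9.1 and limma 3.42.2 in R 3.6.1. The sources used here do not give the annotation, the strand setting or the handling of reads with several matches. The 1105 unnamed rows (0.145% to 0.172% of counts) were left out. The authors' second deposited table, log2 values of 12287 genes, served only as an alternative.

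Columns were matched to samples by name. Rows passing filterByExpr (minimum count 10, minimum total 15) were scaled by TMM and tested in R 4.3.3 with edgeR 4.0.16 (glmQLFit, robust, and glmQLFTest, no covariate), OFF against ON, with Benjamini-Hochberg adjustment at 0.05. SE is the log2 fold change divided by the square root of F, and 95% intervals use the same SE. Pair ratios used CPM plus 0.5 and an exact permutation test. Alternatives were DESeq2 1.42.0, RLE scaling, 2 other filters, limma-voom (limma 3.58.1), the authors' log2 values, leaving out the ribosomal RNA locus, a replicate block and each library in turn. Annotation was GENCODE vM21 (GRCm38), which matched all 37 symbols. Near copies were sought by blastn with the last 300 bases of each coding transcript (at least 95% identity over 100 bases): 10 of the 37 genes had one, and 7 had a copy with over 5% as many counts. For 7 genes an opposite-strand gene shares 41 to 411 exonic bases at the 3' end, and without a stated strand setting their reads cannot be told apart. Promoter sequences were RefSeq's on GRCm38.p6.

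The members and gene lists were chosen with earlier results of these data known. All 37 genes are named; values in every library are given for those at least 2-fold lower, higher in OFF, in a related pair or with the 3 smallest p of a role, and for others where useful. Of each further list the 3 smallest p and any call in the other direction are named, and of the regulators all 7 tested. Gfer, Pprc1, Hsf1, Nrf1 and all motifs were chosen after values were seen. No 2 libraries of a group were alike within sampling noise (chi-square per degree of freedom 2.95 to 39.7). Of the erythroid marker list, 1 gene is not reported here.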

Additional observations from a re-analysis of the deposited data

How the results depend on the processing

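Of the 25 calls, 20 held under all 14 alternatives that could test them, and the other 5 (Tomm22, Grpel2, Lonp1, Tsfm and Gfm1) were lost under at least 1. Of the 12 genes not called, Timm22 and Tufm were called under at least 1 alternative. The count of the 37 genes called lower was 23 to 25 with all libraries and 21 to 27 with 1 left out, and none was called higher in any. Replicate numbers did not pair the mice: deviations of same-numbered libraries correlated at 0.035, -0.076 and -0.050, and not every library correlated best with its own number. With a replicate block 24 genes were called lower, and other import genes gave 0 higher and the large mitochondrial ribosomal subunit 1 higher.

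Signs changed for 3 genes near 0. Tomm6 gave -0.0096 with no filter, -0.0026 with the replicate block, -0.0033 with limma-voom and -0.087 to 0.12 over the omissions of 1 library. Timm10b gave 0.021 with at least 10 CPM in 3 libraries, 0.027 with the authors' log2 values, 0.013 without the ribosomal RNA locus and -0.17 to 0.12 over the omissions. Tomm7 ranged from -0.12 to 0.024 over the omissions. The cause was not tested.

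With DESeq2, other mitochondrial translation factors gave 2 lower, the small ribosomal subunit 9 lower, other chaperones and proteases 1 higher, and other import genes and the large ribosomal subunit 0 higher. Other import genes gave 0 higher with no filter. Other chaperones and proteases gave 1 higher with limma-voom and with the authors' log2 values. The small ribosomal subunit gave 1 higher with those values and with at least 10 CPM in 3 libraries. With 1 library left out the lower and higher counts were 4 to 12 and 0 to 2 for other import genes, 4 to 6 and 1 to 2 for other chaperones and proteases, 2 to 5 and 0 to 1 for other translation factors, 15 to 32 and 0 to 2 for the large and 8 to 15 and 0 to 1 for the small ribosomal subunit.

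Pseudocounts of 0.1 and 2 CPM gave Timm17a to Timm17b differences of -1.24 and -1.14. Omission of 1 library, chosen after seeing the data, gave -1.26 to -1.16 for that pair, -1.69 to -1.33 for Timm8a1 to Timm8b and -0.20 to -0.08 for Grpel1 to Grpel2. A floor of 3 counts, at most 0.372 CPM and for counting error only since reads carry no molecular identifiers, lies below every level of the 37 genes. The largest SEs of the log2 fold change were those of Timm21 (0.25) and Tsfm (0.22).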
